A study of Homo sapiens with 2 samples.

Results

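The HOX genes encode homeodomain transcription factors and lie in 4 clusters, HOXA on chromosome 7, HOXB on chromosome 17, HOXC on chromosome 12 and HOXD on chromosome 2. Of 39 HOX genes of these clusters in the RefSeq annotation of GRCh38, 38 were taken as a fixed list of names, and the remaining one is not analysed here. Around them, every peak was collected whose summit lay from 50 kb before the first to 50 kb after the last annotated HOX gene of a cluster. That rule found 6 of the 33491 untreated peaks and 5 of the 26590 etoposide peaks.

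The peaks mark JUNB, which pairs with FOS-type proteins to form the transcription factor AP-1, and were measured by CUT&RUN, in which a nuclease tethered to an antibody cuts out the DNA around the bound protein for sequencing. IMR-90, the cells used, are human lung fibroblasts. One library came from cells without treatment and the other from cells given etoposide (ETO), a topoisomerase II inhibitor that breaks DNA and is used to bring fibroblasts into senescence. The dose and time of treatment are not given in the sources used here, no IgG or input library was used here, and peak lists hold no expression values, so the fibroblast label could not be checked against markers. With 1 library per condition, no difference between conditions could be tested.

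Within a cluster the genes are numbered by paralogue group, and genes of the same group in different clusters descend from a common ancestor. Low groups are expressed toward the head and high groups toward the tail and the ends of the limbs, in the order in which the genes lie on the chromosome. Fibroblasts keep a HOX pattern of the body site they came from, and silent HOX genes are commonly covered by Polycomb chromatin. Groups 1 to 3 are called anterior here, groups 4 to 8 central and groups 9 to 13 posterior. The anterior end of HOXA and HOXB has the lower coordinate on its chromosome, and that of HOXC and HOXD has the higher one.

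Few JUNB peaks were listed at the 4 clusters. The HOXA window held 2 peaks in each library, the HOXB window held 4 untreated and 3 etoposide peaks, and the HOXC and HOXD windows held 0 in either library. Inside the clusters themselves, which span 107 kb (HOXA), 200 kb (HOXB), 117 kb (HOXC) and 103 kb (HOXD), there was 1 peak in each library, and it was at the same place, inside HOXA3. All the other window peaks lay outside the genes, off the anterior ends of HOXA and HOXB.

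**Figure D1:**
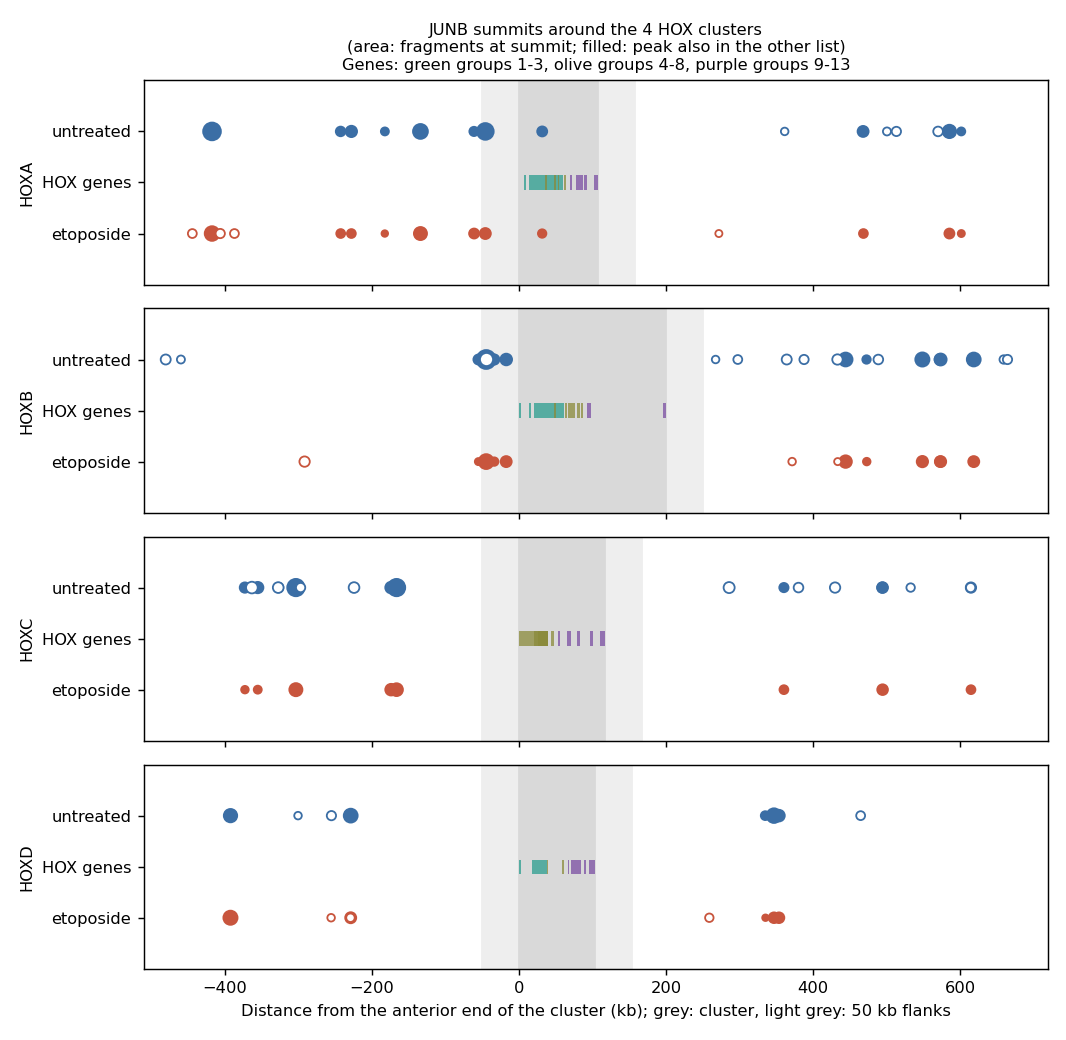
JUNB summits within 500 kb of each HOX cluster, by distance in kb from the anterior end of the cluster, in the untreated (blue) and etoposide (red) library. Marker area is proportional to the fragments at the summit, filled markers have a counterpart in the other list, and the grey bands, which mark the cluster and its 50 kb flanks, hold 6 untreated and 5 etoposide summits, all in HOXA and HOXB.

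The promoter sequences of 4 starts show what lies before HOX genes near the HOXA3 peak, at the anterior end of HOXB and in a cluster with no peak. They are the 250 bases before the start in the RefSeq table of GRCh38.p14, on the strand of the gene, 5′ to 3′. No genome sequence was used here, so the peaks themselves are not shown. HOXA3 is shown at the start nearest to the peak inside it (chr7:27122978-27123277, minus strand), HOXA4 as the other HOX gene within 10 kb of that peak (chr7:27130708-27131007, minus strand), HOXB1 as the HOX gene nearest to the HOXB peaks (chr17:48530962-48531261, minus strand), and HOXC4 for the HOXC cluster, at a start that it shares with HOXC5 (chr12:54016638-54016937, plus strand). The annotated HOXC6 gene begins at that HOXC start, 54016888, as well. The intervals are the table's windows of 300 bases, which run on 50 bases past the start. Capitals would mark an AP-1 site, TGANTCA, or a cyclic AMP response element, TGACGTCA, and there are none.
HOXA3: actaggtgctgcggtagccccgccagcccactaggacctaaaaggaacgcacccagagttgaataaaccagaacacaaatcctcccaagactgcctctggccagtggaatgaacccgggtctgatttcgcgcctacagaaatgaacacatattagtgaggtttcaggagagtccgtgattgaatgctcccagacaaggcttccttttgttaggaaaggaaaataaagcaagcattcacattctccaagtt
HOXA4: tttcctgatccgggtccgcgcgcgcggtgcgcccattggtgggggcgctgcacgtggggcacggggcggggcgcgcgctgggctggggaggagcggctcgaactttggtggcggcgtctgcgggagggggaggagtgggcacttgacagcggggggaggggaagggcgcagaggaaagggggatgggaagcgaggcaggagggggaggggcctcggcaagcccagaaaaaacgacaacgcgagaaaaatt
HOXB1: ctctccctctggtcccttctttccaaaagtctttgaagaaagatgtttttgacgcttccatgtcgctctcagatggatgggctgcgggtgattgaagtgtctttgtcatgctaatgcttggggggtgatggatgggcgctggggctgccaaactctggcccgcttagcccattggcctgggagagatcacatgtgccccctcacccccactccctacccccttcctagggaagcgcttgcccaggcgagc
HOXC4 and HOXC5: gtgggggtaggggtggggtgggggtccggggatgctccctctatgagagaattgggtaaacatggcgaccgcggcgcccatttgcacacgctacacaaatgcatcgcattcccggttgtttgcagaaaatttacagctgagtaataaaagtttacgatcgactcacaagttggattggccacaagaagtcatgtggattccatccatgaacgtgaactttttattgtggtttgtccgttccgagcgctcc

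The same search was made in every HOX promoter of the table. The table matched 20 of the 38 genes, with 26 distinct windows, since HOXA3 and HOXA10 have several starts and HOXC4 and HOXC5 share one. Neither motif, each of which reads the same on both strands, was found in any of the 26 windows. Over all 34789 promoter windows of chromosomes 1 to 22 and X, 7.69% held TGANTCA and 1.84% held TGACGTCA. The median GC content was 58.0% in the HOX windows (43.7% to 76.3%) and 58.7% in all windows. At such shares a set of 26 windows can hold no match by counting alone, so no difference from all windows is read here. The set is also uneven, with several neighbouring starts of HOXA3, HOXB1 alone for HOXB and the shared start alone for HOXC. A match or its absence describes the letters of these windows only.

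No peak touched a HOX promoter window in either library. Over all promoter windows, 8.84% were overlapped by an untreated peak and 2.82% by an etoposide peak. A summit within 1 kb of the start was also found for 0 of the 26 HOX starts in both libraries, beside 13.1% (untreated) and 5.22% (etoposide) of all starts. The 26 windows cover 20 genes and many lie close together, so a count of 0 is no measure of a difference from these shares. The nearest approach was at HOXA3, whose start at 27123027 had the untreated summit 1499 bp and the etoposide summit 1437 bp upstream.

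The peak inside HOXA3 was the only one within 10 kb of any of the 38 genes. HOXA3 is an anterior gene known for its part in forming the thymus and parathyroid glands. In the untreated library the peak lay at chr7:27124437-27124829 with its summit at 27124526, and in the etoposide library at chr7:27124193-27124572 with its summit at 27124464. The lists had 136 bp in common there, and the summits were 62 bp apart, inside both HOXA3 and the long noncoding RNA gene HOXA-AS2. HOXA3 as annotated runs from 27107010 to 27152583 on the minus strand and also spans HOXA4, HOXA5 and HOXA6. The summits are inside it only by its starts at 27150950 and 27152583, and lie upstream of its other listed starts.

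This peak was weak in both lists. The number of fragments stacked at a summit was derived from the authors' fold and p-value, and was 14 here without and 10 with etoposide, beside list medians of 15 and 13. The authors' fold over the local background was 4.93 and 4.98, and their -log10 q was 5.50 and 4.35. In the untreated list 82.6% of peaks had a higher -log10 q, and in the etoposide list 90.3% did.

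By the window of 10 kb, this single place gave 2 of 38 HOX genes a peak in each library, HOXA3 itself and HOXA4, which lay 3.999 kb and 4.061 kb from the 2 summits. That is 5.26% of the HOX genes, where an untreated peak was that close to 49.6% and an etoposide peak to 38.9% of all 19974 protein-coding genes. HOX genes are short, with a median length of 3.79 kb beside 24.2 kb for all coding genes, and a short gene has less room for a summit. Among coding genes no longer than HOXA3, the longest HOX gene at 45.6 kb, the shares within 10 kb were 38.7% and 26.1%, but the median length of that set, 12.4 kb, is still above that of the HOX genes. Within 1 kb only HOXA3 had a summit, 1 of 38 in each library, beside 39.5% and 30.3% of all coding genes. Neighbouring HOX genes share their surroundings, so the 38 genes are not 38 separate observations.

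The wider windows gave the same order of clusters. Within 50 kb a summit was found for 11 of 38 HOX genes in each library, 8 of HOXA and 3 of HOXB, beside 72% (untreated) and 62.6% (etoposide) of all coding genes. No summit lay within 100 kb of 20 HOX genes without etoposide and 21 with it, beside 16.8% and 23.1% of all coding genes. All 18 genes of HOXC and HOXD were among them in both libraries.

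**Figure D2:**
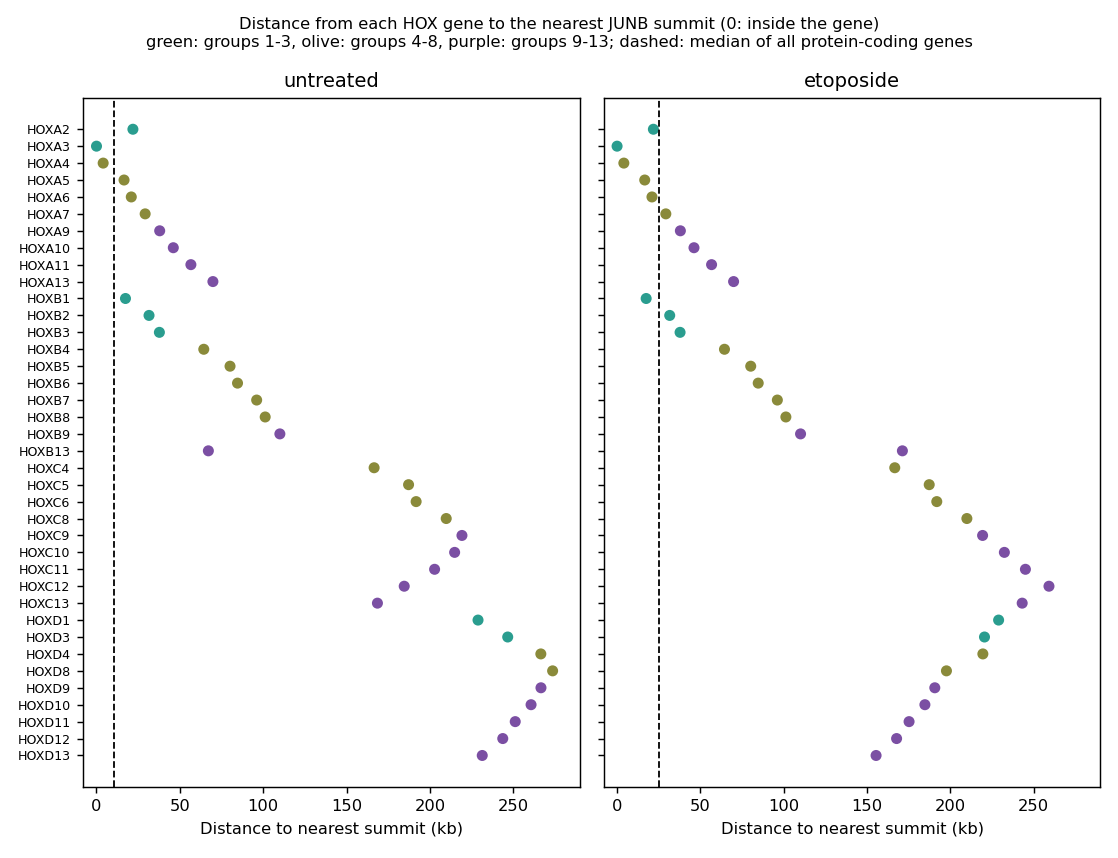
Distance in kb from each of the 38 HOX genes to the nearest JUNB summit in the untreated (left) and etoposide (right) library, with 1 point per gene coloured by paralogue group and the median of all protein-coding genes dashed. HOXA3 stands at 0 in both libraries, and all genes of HOXC and HOXD stand beyond 100 kb.

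Among the anterior genes, HOXA2, a hindbrain and second-arch patterning gene, lay 21.8 kb from the nearest summit in both libraries. HOXB1, which acts in the hindbrain, lay 17.4 kb away in both, HOXB2 31.5 and 31.6 kb, and HOXB3 37.7 and 37.8 kb. HOXD1 and HOXD3 were much farther, at 229 kb in both libraries and at 247 kb (untreated) and 220 kb (etoposide). Thus 5 of the 7 anterior genes had a summit within 50 kb, and the exceptions were the 2 of HOXD. Over all coding genes 72% (untreated) and 62.6% (etoposide) had a summit that close. The counts by class, here and below, restate where the summit in HOXA3 and the peaks off HOXB1 lie. They are not separate observations, and no trend along the clusters is read from them.

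Of the 15 central genes, 4 had a summit within 50 kb, all of them in HOXA. HOXA5, known for its part in lung development, lay 16.5 kb from the untreated and 16.6 kb from the etoposide summit in HOXA3. HOXA6 followed at 20.9 kb and HOXA7 at 29.2 and 29.3 kb. The central genes of HOXB, from HOXB4 at 64.4 kb to HOXB8 at 101 kb, stood progressively farther from the peaks off the anterior end.

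The 16 posterior genes included 2 with a summit within 50 kb, HOXA9 at 37.91 and 37.97 kb and HOXA10 at 46.1 kb in both. HOXA13, a gene of the hand and foot, lay 69.8 and 69.9 kb away. HOXB13, which is known from the prostate and sits apart from the rest of its cluster, was the HOX gene of HOXA and HOXB whose distance differed most between libraries, 67.1 kb without and 171 kb with etoposide. HOXC13, a gene of hair and nails, lay at 169 and 243 kb, and HOXD13, a gene of the digits, at 231 and 155 kb. The posterior HOXC genes thus lay nearer to an untreated summit or at nearly the same distance, and the posterior HOXD genes nearer to an etoposide summit.

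The distance was the same within 0.1 kb in both libraries for 25 of the 38 genes, 10 of 10 in HOXA, 9 of 10 in HOXB, 5 of 9 in HOXC and 1 of 9 in HOXD. Genes of a cluster share their nearest summit, as all 10 HOXA genes share that in HOXA3, so these are not separate observations. The share of all coding genes with an equal distance was not determined. The median distance over the 38 genes was 106 kb without and 133 kb with etoposide, beside 10.4 and 24.9 kb over all coding genes. By cluster, the untreated and etoposide medians were 25.5 and 25.5 kb in HOXA and 73.6 and 82.4 kb in HOXB. They were 192 and 219 kb in HOXC, and 251 and 191 kb in HOXD.

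By -log10 q, the strongest window peaks of each list were shared ones off the anterior ends of HOXA and HOXB. Not every shared peak there was strong. Off HOXA, an untreated peak at chr7:27046729-27047330 had its summit 45.8 kb outside the cluster, with 39 fragments on a local background of 1.43, and 1.59% of its list was stronger. Its etoposide counterpart at chr7:27046833-27047258 had 17 fragments on a background of 0.907, and 17.0% of its list was stronger. The authors' fold was 16.4 without and 9.44 with etoposide, the widest gap among the window peaks, and the summits were 6 bp apart. The nearest of the 38 genes was HOXA2, at 53.2 kb.

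Off HOXB there were 3 shared places in a row, 44.7, 33.8 and 17.4 kb outside the cluster. HOXB1 was the nearest HOX gene to each, while the nearest coding gene of the outermost was SKAP1, at 38.8 kb. The outermost, at chr17:48483687-48483967 in the untreated list and chr17:48483723-48483941 in the etoposide list, had 50 and 31 fragments, and its fold was 8.16 and 9.26. Its local background, 5.25 and 2.46 fragments, stood above the list medians of 1.27 and 0.907. The untreated list alone had a further peak beside it, at chr17:48484092-48484468, with 24 fragments on a background of 5.27 and a fold of 3.99.

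The middle place, chr17:48494420-48494858 in the untreated and chr17:48494690-48494976 in the etoposide list, had 15 and 10 fragments and a fold of 5.76 and 5.88. It was weak, with 64.9% of the untreated and 77.4% of the etoposide list stronger by -log10 q. The innermost, chr17:48510749-48511267 and chr17:48510845-48511237, had 19 and 17 fragments and a fold of 8.43 and 10.03. The untreated library had more fragments at all 5 shared places of the windows, while the fold over the local background was higher in the etoposide list at 4 of the 5, by small amounts at HOXA3 and at the middle HOXB place. Neither count nor fold was scaled for depth between the libraries. The lowest local background, read as mean genome coverage, was 0.482 fragments for untreated and 0.377 for etoposide.

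**Figure D3:**
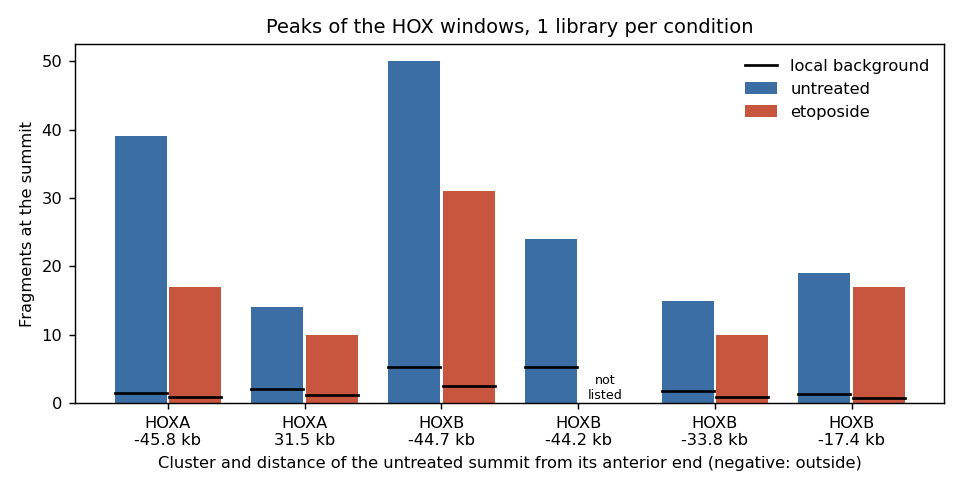
Fragments at the summit of each peak in the HOX windows, in the untreated (blue) and etoposide (red) library, with the local background as a black line; labels give the distance of the untreated summit from the anterior end of the cluster. The untreated bar is the higher one at the 5 shared places, from 14 against 10 fragments inside HOXA3 to 50 against 31 off HOXB.

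Etoposide peaks numbered 0.833 times the untreated peaks in the HOX windows (5 against 6, 95% interval from counting alone 0.270 to 2.57) and 0.791 times over chromosomes 1 to 22 and X. In the windows, 5 of 6 untreated peaks had an etoposide counterpart with at least 1 bp in common, 83.3% (95% Wilson interval 43.6% to 97.0%), and 5 of 5 etoposide peaks had an untreated one (56.6% to 100%). Over all peaks the shared shares were 51.0% and 64.8%. At this number of peaks a difference of the HOX windows from the whole lists was not detectable for the ratio or for either shared share.

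Peak density gave a similar reading. The 4 windows add up to 0.928 Mb and held 6.47 untreated peaks per Mb (95% exact Poisson interval 2.37 to 14.1) and 5.39 etoposide peaks per Mb (1.75 to 12.6). Chromosomes 1 to 22 and X held 10.8 and 8.50 per Mb, inside these intervals. Inside the clusters alone, 1 peak in 0.528 Mb gave 1.89 per Mb in each library (0.0480 to 10.6). The untreated genome density lay just above that interval and the etoposide density inside it.

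Each cluster sat in a stretch without a listed summit. In the untreated library the stretch was 330 kb long at HOXA, from the summit in HOXA3 onward, 285 kb at HOXB, 452 kb at HOXC and 564 kb at HOXD. In the etoposide library the lengths were 240, 389, 527 and 488 kb. The stretches held 8 of 10 HOXA genes (all but HOXA2 and HOXA3) and every HOXB, HOXC and HOXD gene in both libraries.

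Over all stretches between neighbouring summits the median was 30.6 kb (untreated) and 39.9 kb (etoposide). Of the untreated stretches 95.2% were shorter than that at HOXA, 94.3% than that at HOXB, 96.7% than that at HOXC and 97.5% than that at HOXD. For etoposide the shares were 90.2%, 94.6%, 96.2% and 95.8%. These shares are a description only, because a stretch chosen for covering a cluster already seen to hold few or no summits must be long, and long stretches are more likely than short ones to cover any given place. The longest of these, the untreated one at HOXD, ranked 810 by length of 32527 stretches.

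The coding genes in the stretches were mostly HOX genes. At HOXC the untreated stretch held 10 coding genes, the 9 HOXC genes and SMUG1, a uracil-DNA glycosylase, and the etoposide stretch also held CALCOCO1. At HOXD the untreated stretch held the 9 HOXD genes with EVX2, LNPK and MTX2, and an etoposide peak inside LNPK ended the stretch earlier in that library. The HOXB stretch held PRAC1 and PRAC2 in both libraries and, in the etoposide library, TTLL6, CALCOCO2 and ATP5MC1 as well. More coding genes than at HOXC were found in 137 other untreated stretches and 173 etoposide stretches.

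The ends of the stretches differed between sides. At the anterior end the bounding peak was the same place in both libraries in 4 of 4 clusters, and at the posterior end it was a different place in 4 of 4. The anterior peaks were those in HOXA3 and 17.4 kb off HOXB1, already described, and 2 more at some distance. Off HOXC4 it lay 167 kb away, at chr12:54222349-54222743 (untreated, 42 fragments, fold 14.4) and chr12:54222470-54222767 (etoposide, 23 fragments, fold 11.9), 8.36 and 8.31 kb from CBX5, the gene of the heterochromatin protein HP1 alpha. Off HOXD1 it lay 229 kb away, at chr2:176419706-176419948 (27 fragments, fold 12.4) and chr2:176419707-176419950 (17 fragments, fold 10.6), with MTX2 as the nearest coding gene.

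At the posterior ends the bounding peaks had 7 to 17 fragments. Beyond HOXA13 the first summit lay 254 kb away without and 165 kb with etoposide, and neither had a counterpart. Neither bounding peak beyond HOXB13 had one either. Beyond HOXB13 it lay 67.1 kb away, inside TTLL6 (8 fragments), when untreated and 171 kb away (8 fragments) with etoposide. Beyond HOXC13 it lay at 169 and 243 kb, and beyond HOXD13 at 231 and 155 kb. The etoposide peak beyond HOXC13 and the untreated peak beyond HOXD13 had counterparts in the other list, which had a further peak nearer to the cluster, so at these 2 ends the difference rests on 1 peak listed in 1 library alone. With 4 clusters and 1 library per condition, this contrast of the ends is a description.

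The noncoding genes within the clusters followed their neighbours. Of 24 long noncoding RNA genes, HOXA-AS2 alone had a summit within 10 kb in either library. HOTAIR, a HOXC transcript known for its link to Polycomb, lay 192 and 248 kb from the nearest summit. None of the 8 microRNA genes had a summit within 10 kb, and the nearest was MIR196B at 45.0 kb in both libraries. MIR10A lay 68.7 and 68.8 kb and MIR10B 269 and 218 kb away. The share over all long noncoding RNA or microRNA genes was not determined. These counts therefore have no background beside them and are a description only.

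Genes that work with the HOX proteins or on HOX chromatin were taken from lists of known function. HOX proteins bind DNA together with the PBX, MEIS and PKNOX homeodomain proteins, and 8 of 9 of these cofactor genes had a summit within 10 kb in each library, the same 8 genes, with PBX2 the exception at 322 and 274 kb. The summits lay inside the gene for 7 of the 8 in both libraries, and MEIS3 had one at 6.08 and 6.05 kb. The cofactor genes are long, with a median of 139 kb, which gives them more room for a summit than the HOX genes have.

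Polycomb repressive complex 2, which places the H3K27 methyl mark, had a peak at 10 of 11 genes without and 6 of 11 with etoposide. Both lists had one at AEBP2, EZH2, JARID2, PHF1 and SUZ12, the untreated list alone at EZH1, MTF2, PHF19, RBBP4 and RBBP7, and the etoposide list alone at EED. Some of these calls rest on the limit of 10 kb. An etoposide summit lay 12.4 kb from PHF19, 17.1 kb from MTF2 and 17.6 kb from RBBP4, but 39.3 kb from EZH1 and 72.4 kb from RBBP7. An untreated summit lay 14.7 kb from EED. Of the Polycomb repressive complex 1 genes, which bind that mark and compact chromatin, 5 and 3 of 12 had a peak, with CBX2 and CBX8 in the untreated list alone. An untreated summit lay inside CBX8, and the nearest to CBX2 was 9.04 kb away, just inside the limit. CBX6 was also near the limit, at 9.79 and 9.87 kb. The nearest etoposide summits lay 708 kb from CBX8 and 717 kb from CBX2. Whether 1 untreated summit counted for both genes was not determined. The Trithorax-type activators, which keep HOX genes on, had 7 and 5 of 9, with MEN1 and WDR5 in the untreated list alone. The untreated list is the longer one, with 32550 peaks beside 25739 on chromosomes 1 to 22 and X. The share of all coding genes with a peak in 1 list alone was not determined. Genes named for 1 list alone, here and in the lists below, are therefore a description only.

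Retinoic acid switches on anterior HOX genes, and 3 of 10 genes of its signalling had a peak in each library. RARA and RARB had one in both, RXRG in the untreated list alone and RARG in the etoposide list alone. The boundary factors CTCF and cohesin, which fold the clusters into domains, had 6 and 5 of 6, with SMC1A in the untreated list alone. A difference between lists of genes was not tested, and these shares stand beside 49.6% and 38.9% of all coding genes. Gene length differs between the lists as well. The median was 62.6 kb for the boundary factors, 48.5 kb for Polycomb repressive complex 2 and 32.9 kb for retinoid signalling. It was 28.2 kb for the Trithorax-type activators and 13.3 kb for Polycomb repressive complex 1, beside 24.2 kb for all coding genes.

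**Figure D4:**
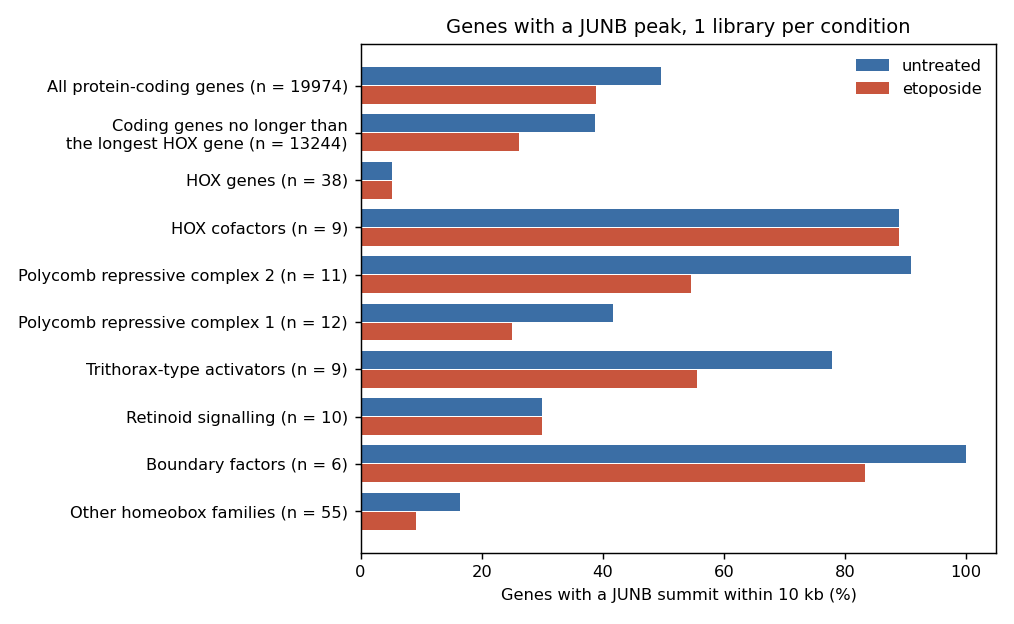
Percent of genes with a JUNB summit inside or within 10 kb on either side in the untreated (blue) and etoposide (red) library, for all protein-coding genes, the HOX genes and lists of related genes, with the number of genes in brackets. The HOX bars stand at 5.26% in both libraries, beside 49.6% and 38.9% for all coding genes.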

How the data were processed

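JUNB CUT&RUN was done on IMR-90 cells, 1 untreated and 1 etoposide library, grouped by the treatment label. The submitters' processing notes name Bowtie2, MACS2, mm10 and hg38 without roles, and settings are not given in the sources used here. Per the narrowPeak layout, the deposited values per peak are the fold of the summit over local background (a ratio), -log10 p and -log10 q, a score (the whole part of 10 times -log10 q within 1 unit in 100% of peaks), and the summit offset. These are the authors' values and only describe peaks within their own list. The lists hold 32550 untreated and 25739 etoposide peaks on chromosomes 1 to 22 and X, with -log10 q from 2.03 and 2.00 up. A list shows only what passed that threshold, so a place without a listed peak may still be bound.

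Summits were set against RefSeq GRCh38.p14 genes, counted from 1. Fragments at the summit were solved from fold = (k + 1)/(b + 1), where k is the pileup and b the local background, and the Poisson p, and a whole k was found for 100% of peaks, with the deposited -log10 p met within 0.001. This step was tested on simulated data. Densities use chromosome lengths up to the last listed peak. Python 3.11.15, pandas 2.3.3 and SciPy 1.17.1 were used. No test was run. Intervals cover counting error only. One gene of a comparison list is not reported here. The HOX genes and gene lists were chosen with earlier results of these data known. Genes are named where a summit lay within 10 kb or to show each paralogue class; peaks are named where they lie in a window or end a peak-free stretch, a choice made after the stretches were seen. Alternatives were the flank, the gene window, list strength, overlap rule and windows drawn around the 38 genes only.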

Additional observations from a re-analysis of the deposited data

How the results depend on the processing

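No paired analysis was possible because each condition had 1 library and the labels carry no replicate numbers. No replicate could be left out for the same reason. The peak numbers in the HOX windows, 6 untreated and 5 etoposide, fell to 1 and 1 with no flank. With a flank of 100 kb they were 10 untreated and 7 etoposide, and among the 10000 strongest peaks of each list they were 3 and 3. Their ratio (etoposide over untreated) ranged from 0.667 to 1 over the alternatives, inside its counting interval. The number of HOX genes with a peak was 1 in each library within 1 kb, and also 1 in each when a summit counted for its nearest gene only. Among the 10000 strongest peaks it was 0 in both libraries, beside 22.1% (untreated) and 20.4% (etoposide) of all coding genes. With peaks of -log10 q 5 or more it was 2 without and 0 with etoposide, because the HOXA3 peak lies on either side of that value, and 45.8% and 35.2% of all coding genes had a peak. Windows drawn around the 38 genes only, an alternative chosen after seeing the data, leave out the peak off HOXA and gave 5 and 4 peaks. With overlap of at least 50% of both peaks, 50% of untreated and 60% of etoposide peaks were shared. Pileups of 7 to 50 fragments limit how far weak peaks can be compared.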

Other observations

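Other homeobox families gave a share numerically between those of the HOX genes and of all coding genes. A list of 55 genes from the DLX, IRX, LHX, MSX and related families was drawn up after the HOX values had been seen. It includes EVX1 and EVX2, which lie in the stretches without a summit at HOXA and HOXD, so it is not fully separate from the HOX result. Of the 55 genes, 9 had a summit within 10 kb without etoposide (16.4%) and 5 with it (9.09%), and 45 had none in either. Over all coding genes the shares were 49.6% and 38.9%, and the median distances 10.4 and 24.9 kb. The genes with a peak in both were DLX1, DLX2, LHX6 and MSX1. Over the 55 genes the median distance to the nearest summit was 87.0 kb (untreated) and 110 kb (etoposide), beside 106 and 133 kb for the HOX genes, and the median length was 6.55 kb.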
